A study of Mus musculus with 10 samples.

Results

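The microexons compared here are the 2455 exons of 1 to 30 nt for which the authors deposited an inclusion level in untreated neurons and in neurons given cycloheximide. All of them were kept, one entry for each exon: the table had 2469 rows, and 14 exons had more than 1 row, of which the first was used. They lie in 1798 genes and make up 2455 of the 193811 distinct exon intervals that the series' tables hold. The cells were mouse glutamatergic neurons made from embryonic stem cells in the dish and taken on day 7 in culture. The untreated group and the cycloheximide group (100 uM for 12 h) had 2 cultures each, so the comparison rests on 4 of the 10 samples of the series, and the labels give no difference between these groups other than the treatment. The other 6 samples are N2A neuroblastoma cells, and only the 3 that received 40 nM of a non-targeting siRNA for 72 h are used below, as a second reading of baseline inclusion.

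The measurement was percent spliced in (PSI), the share of a gene's transcripts that contain the exon. The deposited table gives a single combined PSI for both cultures of a condition, so the spread between cultures is not visible and no difference below has an SD or a p-value. The read depth behind each PSI is unknown. "Rose" and "fell" mean that PSI under cycloheximide was at least 10 percentage points above or below the untreated PSI, and "moved" means either; these words describe the size of a difference and no test. PSI is a ratio, so a gain of the included form and a loss of the skipped form cannot be told apart. Gene levels in the neurons were not analysed here, so the neuronal label could not be set against marker genes.

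Microexons are very short exons that are included mostly in neurons, where the splicing factor SRRM4 promotes their use, and many add a few amino acids to a synaptic or cytoskeletal protein without changing the reading frame. An exon whose length is not a multiple of 3 shifts the frame downstream, and either its inclusion or its skipping can create a premature stop codon. Transcripts with such a stop are normally removed by nonsense-mediated decay, which needs translation. Cycloheximide blocks translation elongation and is therefore widely used to let such transcripts accumulate, and it also stops the supply of short-lived proteins.

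The sequences of selected microexons show the kinds of exon that the results turn on. Each is written 5′ to 3′ on the gene's strand as it reads in the spliced GENCODE transcript, with the microexon in capitals and 15 nt of each neighbouring exon in lower case. Coordinates are on mm10.
The first set holds frame-keeping exons that fell in the 3 Shank paralogs, in the presynaptic gene Synj1, in the kinesin gene Kif21a and in the kinase gene Csnk1g1.
Shank2, 21 nt, chr7:144408056-144408076, plus strand: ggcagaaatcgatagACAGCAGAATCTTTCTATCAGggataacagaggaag
Shank2, 21 nt, chr7:144398241-144398261, plus strand: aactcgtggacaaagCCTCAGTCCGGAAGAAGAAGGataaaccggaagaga
Shank3, 24 nt, chr15:89538015-89538038, plus strand: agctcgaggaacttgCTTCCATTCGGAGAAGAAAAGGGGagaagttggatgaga
Shank1, 24 nt, chr7:44344298-44344321, plus strand: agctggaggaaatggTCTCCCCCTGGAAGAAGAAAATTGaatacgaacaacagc
Synj1, 21 nt, chr16:90940473-90940493, minus strand: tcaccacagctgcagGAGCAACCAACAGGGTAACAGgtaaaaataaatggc
Kif21a, 21 nt, chr15:90964975-90964995, minus strand: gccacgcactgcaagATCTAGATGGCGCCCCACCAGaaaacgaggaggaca
Csnk1g1, 24 nt, chr9:66035050-66035073, plus strand: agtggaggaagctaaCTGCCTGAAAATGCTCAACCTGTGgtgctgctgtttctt
The second set holds frame-shifting exons that fell and lie in coding sequence. The Phf21a and Phf21b exons are both 23 nt long and share 17 of the 23 bases.
Srpk2, 26 nt, chr5:23526790-23526815, minus strand: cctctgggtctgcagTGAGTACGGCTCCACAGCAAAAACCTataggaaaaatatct
Phf21b, 23 nt, chr15:84793896-84793918, minus strand: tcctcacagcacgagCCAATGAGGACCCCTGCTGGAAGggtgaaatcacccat
Phf21a, 23 nt, chr2:92351609-92351631, plus strand: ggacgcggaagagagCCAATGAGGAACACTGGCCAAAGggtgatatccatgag
Unc13c, 23 nt, chr9:73812951-73812973, minus strand: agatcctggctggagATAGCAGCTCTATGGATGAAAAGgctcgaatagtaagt
The last set holds exons that rose and whose inclusion is predicted to bring in a premature stop codon. The stop begins after 6 nt of the exon in Antxr1 and in Chpt1. It begins downstream of the exon in the other members of this set, 39 nt after the exon's start in Srrm4, 80 nt after it in Pla2g6 and 94 nt after it in Nktr.
Antxr1, 26 nt, chr6:87270755-87270780, minus strand: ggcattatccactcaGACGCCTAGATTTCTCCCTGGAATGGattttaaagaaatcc
Chpt1, 27 nt, chr10:88481353-88481379, minus strand: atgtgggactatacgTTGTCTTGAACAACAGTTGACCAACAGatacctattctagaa
Srrm4, 16 nt, chr5:116454673-116454688, minus strand: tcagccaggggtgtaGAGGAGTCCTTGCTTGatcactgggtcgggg
Pla2g6, 29 nt, chr15:79303574-79303602, minus strand: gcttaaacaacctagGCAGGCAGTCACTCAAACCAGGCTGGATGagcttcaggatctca
Nktr, 28 nt, chr9:121738388-121738415, plus strand: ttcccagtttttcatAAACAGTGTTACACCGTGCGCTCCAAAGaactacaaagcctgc

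Most microexons had nearly the same PSI in both conditions, and those that moved mostly fell. Of the 2455 exons, 51.0% differed by less than 1 point and the median difference was -0.06 points. A total of 339 exons moved, which is 13.8% of all. Of these, 246 fell (10.0% of all exons) and 93 rose (3.79%), so 27.4% of the moved exons rose. The excess of falls was also present among larger differences: 138 exons were lower by 20 points or more and 43 were higher, while 20 were lower by 50 points or more and 4 were higher. The median PSI over all exons was 16.6% in untreated neurons and 14.1% under cycloheximide. The moved exons lay in 296 genes.

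**Figure D1:**
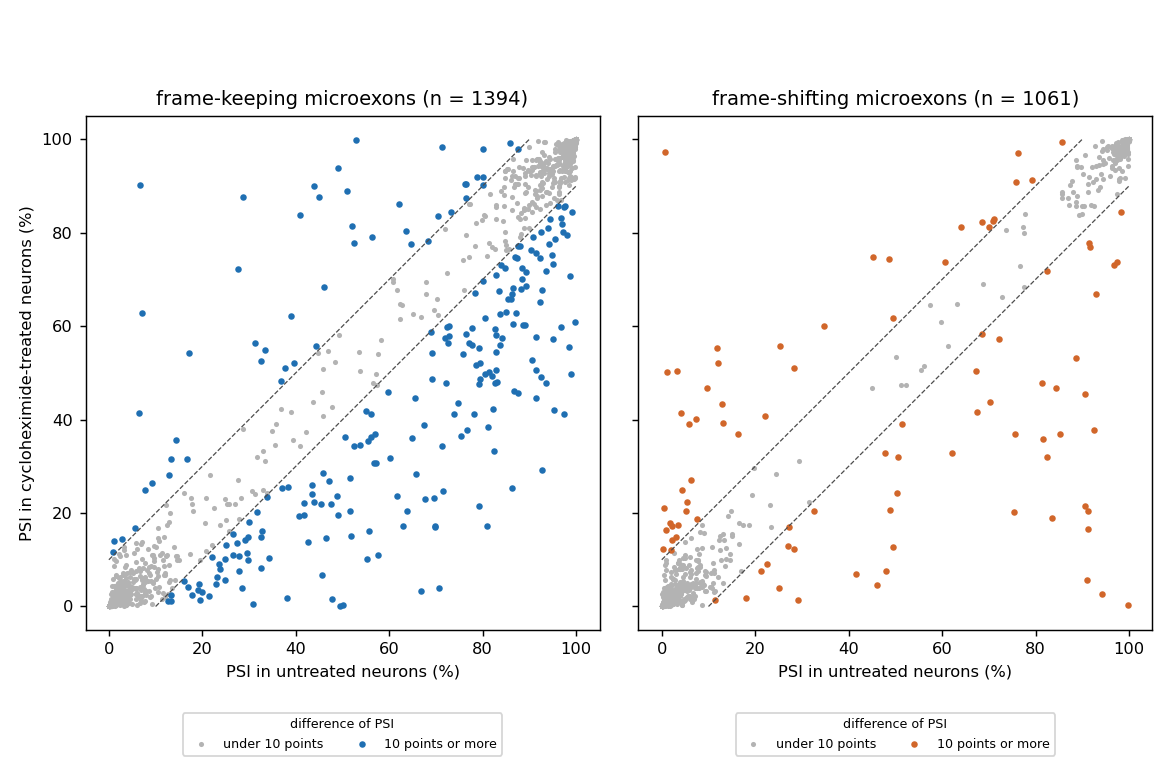
PSI of each microexon in untreated neurons (x axis, percent) against PSI after cycloheximide (y axis, percent), in separate panels for frame-keeping and frame-shifting exons; each point is an exon, and colour marks those at least 10 points apart, outside the dashed lines. In the frame-keeping panel 197 exons lie below the band of small differences and 50 above it, and in the frame-shifting panel 49 lie below and 43 above.

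Over all starting levels together, the excess of falls lay mostly among the exons that keep the reading frame. Frame-shifting exons with an untreated PSI from 25 to 95% also fell more often than they rose, as given below. Of 1394 frame-keeping exons, 197 fell (14.1%) and 50 rose (3.59%). Their median PSI was 51.6% in untreated neurons and 37.8% under cycloheximide. The median difference per exon was only -0.18 points, and 45.3% of these exons differed by less than 1 point. Of 1061 frame-shifting exons, 49 fell (4.62%) and 43 rose (4.05%). The share of the moved exons that rose was therefore 20.2% among frame-keeping exons and 46.7% among frame-shifting ones. These classes also differed in their starting level: an untreated PSI under 5% or of 95% or more was found for 60.4% of frame-keeping and 76.5% of frame-shifting exons, and an exon at an extreme has room to move in one direction only.

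At a matched starting level in the middle of the scale, frame-keeping and frame-shifting exons moved about as often, and a larger share of the moved frame-shifting exons rose. With an untreated PSI from 25 to 75%, 66.9% of 166 frame-keeping exons and 68.8% of 48 frame-shifting exons moved. In this range 27 frame-keeping exons rose and 84 fell, so 24.3% of the moved ones rose, while 12 frame-shifting exons rose and 21 fell, so 36.4% did. From 5 to 25%, 11 of 157 frame-keeping exons rose and 18 fell, against 13 rises and 4 falls among 129 frame-shifting exons. Rises thus made up 37.9% of the moved frame-keeping exons and 76.5% of the moved frame-shifting exons at this level. From 75 to 95%, falls predominated in both classes, with 78 falls and 9 rises among 229 frame-keeping exons and 20 falls and 4 rises among 72 frame-shifting exons.

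The exons near the ends of the scale seldom moved. Under 5%, where a fall of 10 points is not possible, 3 of 449 frame-keeping exons and 14 of 534 frame-shifting exons rose. At 95% or more, where a rise is not possible, 17 of 393 frame-keeping exons and 4 of 278 frame-shifting exons fell. The untreated PSI enters both the level and the difference, so exons were also placed by the mean PSI of both conditions. By this mean, the range from 25 to 75% held 190 frame-keeping exons (27 rose, 114 fell) and 67 frame-shifting exons (18 rose, 32 fell). From 5 to 25% by this mean, 10 frame-keeping exons rose and 38 fell, against 17 rises and 10 falls among frame-shifting exons. From 75 to 95%, 13 frame-keeping exons rose and 45 fell, against 8 rises and 7 falls among frame-shifting exons. Falls outnumbered rises among frame-keeping exons in all 3 ranges under either placing, whereas among frame-shifting exons the direction from 75 to 95% depended on it.

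**Figure D2:**
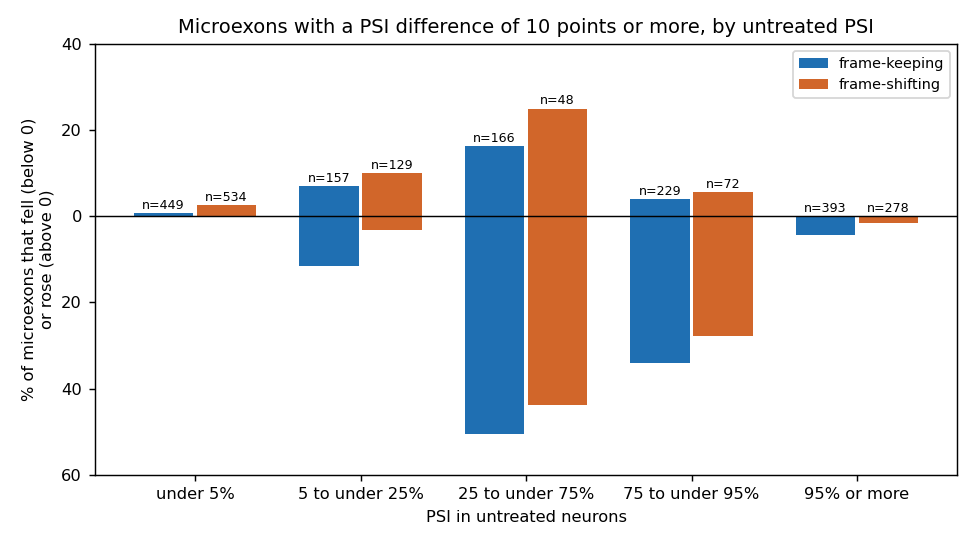
Share of exons (y axis, percent) that rose or fell by at least 10 points in each range of untreated PSI (x axis), rises above zero and falls below, for frame-keeping and frame-shifting exons. From 25 to 75% untreated PSI, 84 of 166 frame-keeping exons fell and 27 rose, against 21 and 12 of 48 frame-shifting exons; each bar is a count over exons with no error bar, since the PSI values are combined over cultures.

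By length, the exons of intermediate size moved most often. Of 750 exons of 1 to 9 nt, 26 rose and 41 fell (8.93% moved). The share was 17.2% of 279 exons of 10 to 15 nt, 18.8% of 393 exons of 16 to 21 nt and 16.4% of 688 exons of 22 to 27 nt, with 37, 54 and 91 falls. Of 345 exons of 28 to 30 nt, 14 rose and 23 fell (10.7% moved). In each of these 5 length groups falls outnumbered rises. The groups also differed in starting level: median untreated PSI was 2.47, 12.0, 49.3, 87.5 and 96.3% from the shortest to the longest. Exons near the ends of the scale seldom moved, and the length groups were not compared at a matched starting level.

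Single lengths did not follow the pattern of the length groups smoothly. Of the 102 exons of 18 nt, 24 fell and 25.5% moved. Among the 81 exons of 23 nt, 13 fell and 1 rose, so 17.3% moved although this length shifts the frame. The 980 frame-shifting exons of other lengths had 36 falls and 42 rises. The starting levels differed as well, with a median untreated PSI of 77.8% for the 23-nt exons and 4.35% for the other frame-shifting exons, most of which were too low to fall by 10 points. Among the shortest exons, 18 of 249 exons of 3 nt fell and 6 rose, while 4 of 205 exons of 4 nt fell and 9 rose.

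**Figure D3:**
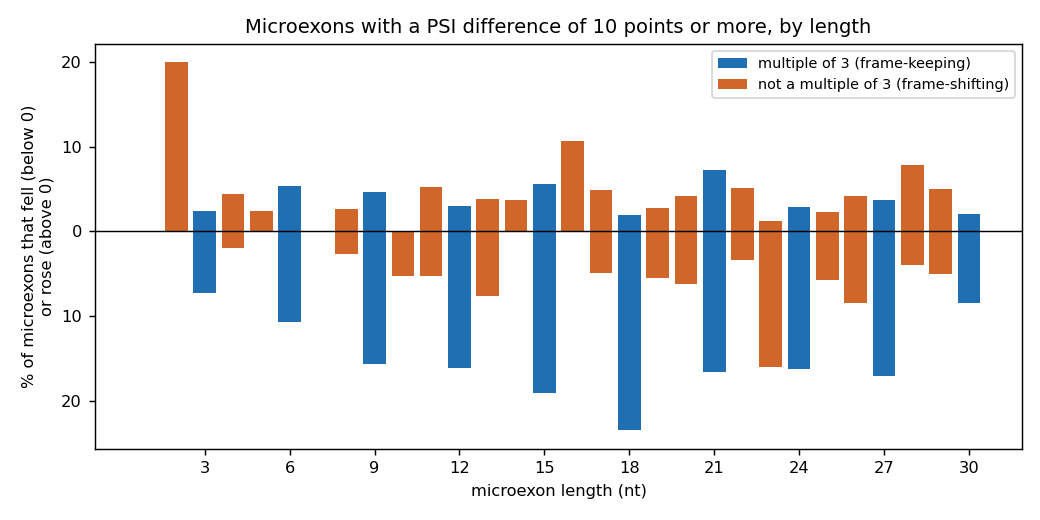
Share of exons (y axis, percent) that rose (above zero) or fell (below zero) by at least 10 points at each exon length (x axis, nt), with frame-keeping lengths, multiples of 3, set apart by colour. The downward bar is longest at 18 nt (24 of 102 exons), 23 nt has the longest downward bar of the frame-shifting lengths (13 of 81), and the tall bar at 2 nt is 1 of 5 exons.

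Exons in annotated coding sequence moved more often than exons without a match in the annotation, but their starting levels differed. Median untreated PSI was 93.5% in coding sequence and 1.75% without a match, where most exons were too low to fall by 10 points. These groups were not compared at a matched starting level. Of the 2455 exons, 1615 had both ends exactly as in an exon of the GENCODE mm10 annotation. Among 1368 exons in coding sequence 190 fell and 49 rose, and among 61 that lie only in untranslated regions 8 fell and 2 rose. The 83 exons found only in transcripts annotated as targets of nonsense-mediated decay had 9 rises (10.8%) and 8 falls (9.64%), a share of rises above the 3.79% of all exons and a share of falls close to the 10.0% of all. The 103 exons found only in other noncoding transcripts had similar shares, with 9 rises (8.74%) and 11 falls (10.7%). The larger share of rises was thus not particular to the decay transcripts. Median untreated PSI was 2.11% for the exons of decay transcripts and 2.82% for those of other noncoding transcripts. The 840 exons without an exact match in the annotation had 24 rises and 29 falls, so 6.31% moved.

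The predicted effect on the reading frame was worked out by adding each exon to, or removing it from, the annotated coding transcripts. A stop codon was counted as premature when it lay more than 50 nt before the last exon junction. The largest placed group was neutral: for 993 exons neither form had a premature stop, and 177 of them fell (17.8%) while 43 rose (4.33%). Their median untreated PSI was 89.7%, against 16.6% for all exons. From 5 to 25% untreated PSI, 16.7% of these neutral exons fell, against 7.69% of all exons. The shares were 51.1 against 49.1% from 25 to 75% and 34.8 against 32.6% from 75 to 95%. Neutral exons are themselves 137 of the 214 exons from 25 to 75% and 227 of the 301 from 75 to 95%. The closeness of the shares in these ranges is therefore partly built in. For 59 exons inclusion created a premature stop, which began inside the exon in 18 and downstream of it in 41. In all 9 frame-keeping exons of this kind it began inside the exon, since such an exon leaves the frame after it unchanged. In this group 8 rose (13.6%) and 7 fell (11.9%). Their order depended on the definition of the stop: with any stop before the annotated one counted, the group held 85 exons, of which 10.6% rose and 25.9% fell. By untreated PSI, 6 of 17 exons of this kind rose and 1 fell from 5 to 25%, where 8.39% of all exons rose. From 25 to 75%, 2 of 10 rose and 5 fell, where 18.2% of all exons rose and 49.1% fell. From 75 to 95% the single exon fell, and none of the 28 exons under 5% or the 3 at 95% or more moved. For 282 exons skipping created a premature stop, and their median untreated PSI was 99.3%. Of these, 4 rose (1.42%) and 9 fell (3.19%). From 25 to 75% untreated PSI, 4 of 11 rose and 3 fell, where 18.2% of all exons rose and 49.1% fell. From 75 to 95%, 3 of 35 fell (8.57%), against 32.6% of all exons. At 95% or more, 3 of 222 fell (1.35%), against 3.13% of all exons. For 52 exons a premature stop was predicted on adding the exon to some transcripts and on removing it from others (1 rose, 7 fell). These are different transcripts, so this class does not show that both annotated forms carry a premature stop. Another 62 exons lay outside the coding sequence (1 rose, 8 fell) and 1007 could not be placed in a coding transcript (36 rose, 38 fell).

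**Figure D4:**
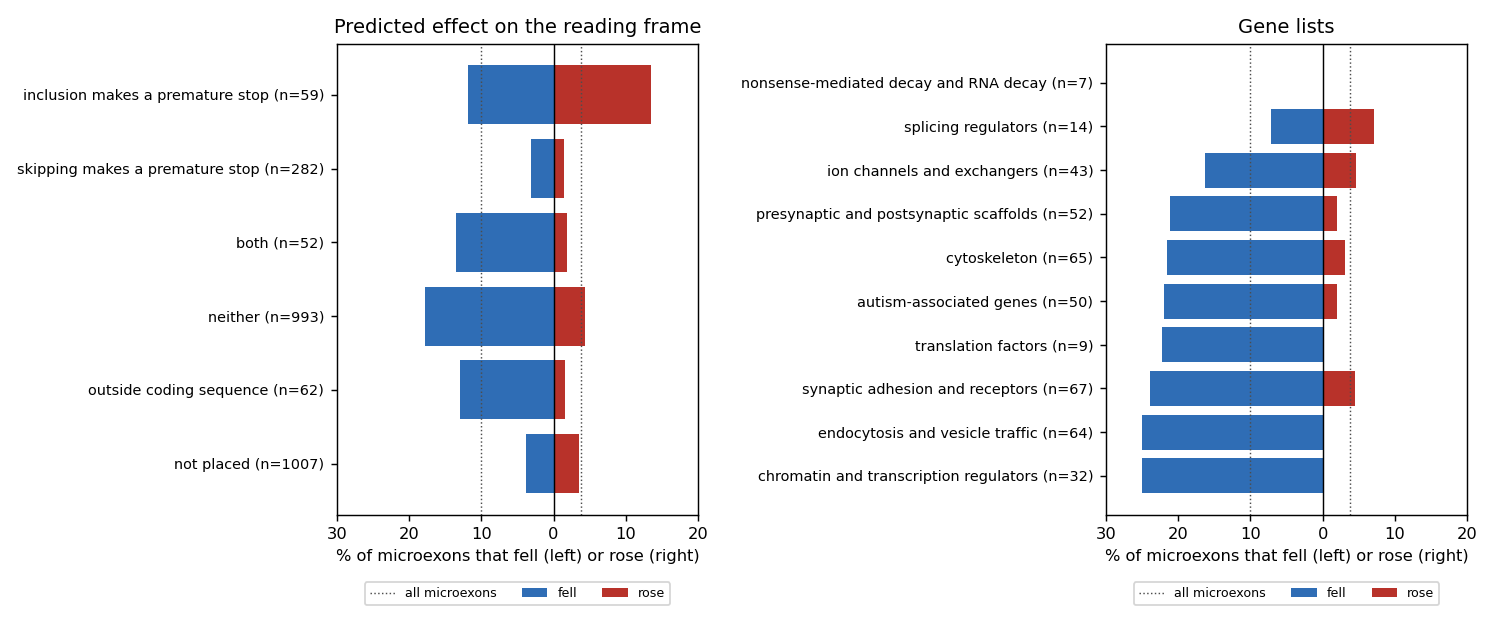
Share of exons (x axis, percent) that fell (left) or rose (right) by at least 10 points in each class of predicted reading-frame effect and in each gene list described, with dotted lines at the shares over all exons (10.0 and 3.79%). The classes and lists were not matched on starting level. Exons whose inclusion creates a premature stop have 13.6% rises and 11.9% falls, exons for which neither form has such a stop have 4.33% rises and 17.8% falls, and exons whose skipping creates one have 1.42% and 3.19%; the longest bars of the gene lists are falls.

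The exons whose inclusion brings in a premature stop moved in both directions. Nktr, which encodes a cyclophilin-related protein of natural killer cells, had the largest rise among them, from 11.7 to 55.2% for its 28-nt exon, although the authors' deposited table gives this difference a probability of 0.667. The 27-nt exon of Chpt1, a cholinephosphotransferase of phospholipid synthesis, rose from 40.9 to 83.7%. The 29-nt exon of Pla2g6, a phospholipase, rose from 9.71 to 46.7%. In Antxr1, a receptor for anthrax toxin, the 26-nt exon rose from 5.80 to 38.95%. The remaining rises in this group were chosen for mention after their values were seen. They were a 16-nt exon of Srrm4, at 7.26% untreated and 40.1% treated, a 2-nt exon of Sept7 (34.7 to 59.9%), a 21-nt exon of BC051142 (14.3 to 35.7%) and a 16-nt exon of Col11a1 (16.3 to 37.0%). Srrm4 encodes the splicing factor that promotes microexon inclusion, and its exon is annotated only in a transcript subject to nonsense-mediated decay. The exons of this group that fell, likewise named after their values were seen, included a 20-nt exon of the calcium channel subunit gene Cacnb2, from 81.5 to 47.8%, and one of 28 nt in the syntaxin gene Stx2, from 25.1 to 3.92%. The Cacnb2 exon and falling exons of Car14 and Ptprd, named in the same way, are annotated in coding sequence. For these the stop was predicted on adding the exon to other transcripts. The exons of this group that rose are annotated only in decay or other noncoding transcripts. The same holds for the remaining falls, the Stx2 exon and exons of Tex26, Stk3 and Nfkb1, also named after their values were seen.

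Among the exons whose skipping creates a premature stop, the falls raise the share of the form with the stop. Falls were few in this class, 9 of 282, and the Srpk2, Phf21b and Unc13c exons fell most. The 26-nt exon of Srpk2, a kinase of SR splicing factors, had the largest difference of the whole table: it was included in nearly all transcripts of untreated neurons (99.7%) and in almost none under cycloheximide (0.337%). In N2A cells the same exon stood at 98.6% ± 0.334 (SD, n = 3). The 23-nt exon of Phf21b, a paralog of the histone-reader gene Phf21a, fell from 91.2 to 16.6%. The 23-nt exon of Unc13c, which encodes a protein that primes synaptic vesicles for release, fell from 83.5 to 18.95%. The related Phf21a exon was lower too, at 62.1% untreated and 32.8% treated, and was chosen after its values were seen. It lies in annotated coding sequence, and a premature stop was predicted on adding it to some transcripts and on removing it from others.

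The other large falls of frame-shifting exons came from several kinds of transcript. The 29-nt exon of Zbtb7b, a zinc-finger transcription factor of T cells, lies in an untranslated region and fell from 94.3 to 2.70%. A 25-nt exon of Frem1, an extracellular matrix protein, fell from 91.1 to 5.70%. The 23-nt exons of Trim72, a protein of membrane repair, and Plch1, a phospholipase C, fell from 91.2 to 20.5% and from 90.6 to 21.5%. Neither form of the Trim72 and Plch1 transcripts was predicted to have a premature stop. A 10-nt exon of Trim34b fell from 75.3 to 20.3%. Of the 8 largest falls among frame-shifting exons, 4 were thus exons of 23 nt.

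The largest rises of frame-shifting exons started close to 0. The 16-nt exon of Fblim1, which encodes the filamin-binding protein migfilin, lies in an untranslated region and rose from 0.738 to 97.3%. A 22-nt exon of Fam133b, annotated only in a transcript subject to nonsense-mediated decay, rose from 4.02 to 41.4%. A 17-nt exon of Ltbp1, a protein that holds latent TGF-beta in the matrix, rose from 12.1 to 52.2% and is not annotated. Adgra2, an adhesion receptor, had a 28-nt exon at 1.02 and 50.1%, and Rad51ap1, a DNA repair factor, had one of 20 nt at 3.19 and 50.4%. For these last exons the authors' deposited table gives probabilities of 0.581 and 0.646. All 8 exons with the largest rises in this class were at or under 12.1% in untreated neurons.

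**Figure D5:**
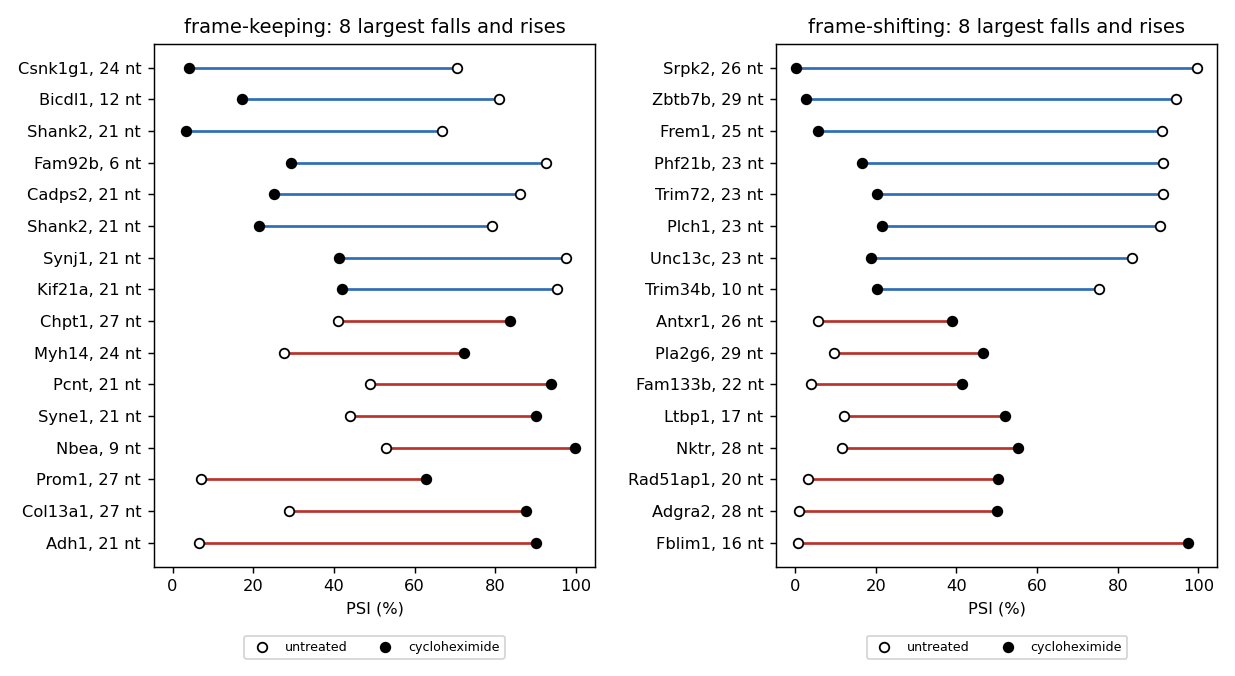
PSI (x axis, percent) in untreated neurons and after cycloheximide for the 8 largest rises and falls of each frame class, 1 line for each exon, joined points being the 2 conditions. The falls of frame-keeping exons start between 66.9 and 97.4%, and the Srpk2 and Fblim1 exons cross almost the whole scale in opposite directions; each point is 1 combined value with no error bar.

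The 8 largest falls among frame-keeping exons started from a high level, at 66.9% or more. The 24-nt exon of Csnk1g1, a casein kinase, fell from 70.5 to 4.01%. A 12-nt exon of Bicdl1, an adaptor between dynein and secretory vesicles, fell from 81.0 to 17.3%. Shank2, a scaffold of the postsynaptic density, had falls in a pair of 21-nt exons, from 66.9 to 3.33% and from 79.2 to 21.5%. At each of these exons the untreated neurons made mainly the included form and the treated neurons mainly the skipped form. A 6-nt exon of Fam92b fell from 92.6 to 29.3%. The 21-nt exon of Cadps2, a factor of dense-core vesicle release, fell from 86.2 to 25.3%. The 21-nt exons of Synj1, a lipid phosphatase that uncoats endocytic vesicles, and Kif21a, a kinesin motor, fell from 97.4 to 41.3% and from 95.3 to 41.9%. In N2A cells the Synj1 exon stood at 1.30% ± 1.15, the Bicdl1 exon at 3.80% ± 1.17 and the Csnk1g1 exon at 1.18% ± 1.24 (SD, n = 3 each).

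Among the largest rises of frame-keeping exons, a 21-nt exon of Adh1, an alcohol dehydrogenase, rose from 6.63 to 90.2% and is annotated only in a transcript subject to nonsense-mediated decay. The 27-nt exons of Col13a1, a membrane collagen, and Prom1, a membrane glycoprotein of progenitor cells, rose from 28.8 to 87.7% and from 7.13 to 62.7%. The 21-nt exons of Syne1, which links the nucleus to the cytoskeleton, and Pcnt, a centrosome protein, rose from 43.9 to 89.96% and from 49.0 to 93.9%. A 24-nt exon of Myh14, a non-muscle myosin, rose from 27.7 to 72.3%. A 9-nt exon of Nbea, a protein of membrane traffic at the synapse, stood at 52.9% untreated and 99.7% treated, with a probability of 0.674 in the authors' deposited table. Together with the Chpt1 exon these made up the 8 largest rises of the class.

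Gene lists placed these exons by role. The 411 exons in genes of any list had 87 falls (21.2%) and 10 rises, against 159 falls (7.78%) and 83 rises among the other 2044 exons. The lists overlap, with 37 of their genes in more than 1 list. No list described below had more rises than falls. The shares to set beside each list are those over all exons, of which 10.0% fell and 3.79% rose. The lists hold many genes with long-known neuronal microexons and were not matched to the other exons on starting level, and whether either set the count of falls was not tested.

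In the list of synaptic adhesion molecules and receptors, 16 of 67 exons fell (23.9%) and 3 rose, with a median difference of -1.67 points. Its largest fall was a 12-nt exon of Ptprd, a receptor phosphatase that organizes synapses, from 93.5 to 47.8%. Other members, chosen after their values were seen, were the 30-nt and 27-nt exons of neurexin 2 (Nrxn2), at 99.8 and 82.8% untreated against 60.9 and 54.4% treated. An 18-nt exon of the teneurin gene Tenm3, chosen likewise, fell from 30.9 to 0.608%.

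In the list of presynaptic and postsynaptic scaffolds, 11 of 52 exons fell (21.2%) and 1 rose, with a median of -1.62 points. Its largest fall was the Unc13c exon above. All 3 Shank genes had a microexon that fell. Beside the Shank2 exons above, the 24-nt exon of Shank3 stood at 38.2% untreated and 1.86% treated, the 24-nt exon of Shank1 at 65.6 and 44.6%, and a 9-nt exon of Shank2 at 92.6 and 49.1%. These last exons were chosen after their values were seen.

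In the list of endocytosis and vesicle traffic, 16 of 64 exons fell, against 10.0% of all exons. None rose by 10 points, and the median was -2.39 points. Its largest fall was the Cadps2 exon above, and others were a 9-nt exon of the clathrin adaptor gene Ap1g1, from 91.3 to 57.7%, and an 18-nt exon in Cadps, the paralog of Cadps2, from 79.3 to 47.7%. A 6-nt exon of the adaptor gene Ap2m1 stood at 50.1% untreated and 0.377% treated, with a probability of 0.503 in the authors' deposited table. These 3 exons were chosen after their values were seen.

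In the cytoskeleton list, 14 of 65 exons fell (21.5%) and 2 rose, with a median of -1.06 points. A pair of 27-nt exons of Clasp2, a microtubule plus-end protein, fell by nearly the same amount, from 82.0 to 49.2% and from 82.8 to 50.6%. Ank3, which anchors channels at the axon initial segment, had exons that moved apart: its 27-nt exon fell from 92.7 to 67.7%, and its 12-nt exon rose from 64.7 to 77.6%. The Clasp2 and Ank3 exons were chosen after their values were seen.

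In the list of ion channels and exchangers, 7 of 43 exons fell (16.3%) and 2 rose, with a median of -0.41 points. Its largest fall was a 30-nt exon of the calcium release channel Ryr1, from 91.5 to 50.6%. The other ryanodine receptor genes had a fall as well, in a 15-nt exon of Ryr3 from 55.6 to 16.2% and in a 24-nt exon of Ryr2 from 29.7 to 14.8%. A separate 15-nt exon of Ryr2 rose from 71.2 to 98.4%. The potassium channel gene Kcnma1 had a 12-nt exon that fell from 82.3 to 42.3%. In the calcium channel gene Cacna1b a 6-nt exon rose from 1.15 to 13.9%. The Ryr2, Ryr3, Kcnma1 and Cacna1b exons were chosen after their values were seen.

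In the list of chromatin and transcription regulators, 8 of 32 exons fell, against 10.0% of all exons. None rose by 10 points, and the median was -0.24 points. Its largest fall was a 21-nt exon of Trrap, a scaffold of histone acetyltransferase complexes, from 71.4 to 24.7%. Paralogous transcription factors of the MEF2 family, chosen after their values were seen, each had a fall, from 87.5 to 45.7% in Mef2a, from 84.9 to 63.0% in Mef2c and from 87.6 to 77.2% in Mef2d. A 6-nt exon of the histone deacetylase gene Hdac9, chosen in the same way, fell from 95.03 to 57.1%.

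Of the 50 exons in the list of autism-associated genes, 11 fell and 1 rose, with a median of -0.98 points. Over all exons, 10.0% fell and 3.79% rose, and the list was not matched to them on starting level.

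The lists of the RNA machinery held few microexons, too few to set against the 13.8% of all exons that moved. Of 14 exons in splicing regulator genes, only those of Srpk2 and Srrm4 moved, the first down and the second up. Of 7 exons in genes of nonsense-mediated decay and RNA decay, none moved by 10 points, and the largest difference was that of a 13-nt exon of the decapping gene Dcp1b, at 4.14 and 0.916%. Of 9 exons in translation factor genes 2 fell. The larger was the 21-nt exon of Eif4g3, a scaffold of the initiation complex, from 83.7 to 56.0%, and this exon stood at 2.75% ± 1.14 (SD, n = 3) in N2A cells.

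Where several microexons of a gene moved, both shared and opposite directions occurred. Of 404 genes with at least 2 microexons, 32 had at least 2 that moved: in 20 of them all moved exons fell, in 2 (Myh14 and Pdss1) all rose, and in 10 both directions occurred. Falls made up 246 of the 339 moved exons in all, and nothing particular to these genes is read from the count. Shank2, Synj1, Carmil1 and Kcnh7 each had 3 exons that moved, all down. Some of these entries, named after their values were seen, are the same exon with another end: a 24-nt entry of Synj1 contains its 21-nt exon and stood at 79.4 and 52.2%, and a 28-nt entry of Plch1 contains its 23-nt exon and stood at 75.5 and 36.9%. In all, 51 entries overlap another on the same strand, 17 of which moved. BC051142, the gene with the most microexons (22), had 6 rises and 1 fall, and was also picked after its values were seen.

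Some frame-shifting exons at an intermediate level barely differed. Of those with an untreated PSI from 25 to 75%, the 5 with the smallest differences were a 29-nt exon of Rlbp1, a retinal carrier protein, at 68.7 and 69.0%, a 22-nt exon of Ttc12 at 59.8 and 60.9%, an 11-nt exon of Snx21 at 63.2 and 64.8%, a 4-nt exon of the dynein gene Dnal1 at 44.97 and 46.7%, and an 8-nt exon of Zfp788 at 29.3 and 31.1%. These 5 were ranked by that difference, so their stability is a description only.

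The exons that fell had a higher median PSI in untreated neurons than in N2A cells, and those that rose had a lower one. Among 128 falls with at least 10 reads in each non-targeting N2A sample, the median PSI was 33.7% in N2A cells and 77.9% in untreated neurons, and neurons were higher by 10 points or more for 76 and lower for 18. Among 18 rises the medians were 87.5 and 50.5%, with neurons lower by 10 points or more for 12 and higher for 2. Over all 834 exons matched in this way the medians were 96.7 and 95.3%, with neurons higher for 170 and lower for 111. The neuron values here are those that entered the differences, so this is a description without a test.

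The neural microexons that the authors list carried a larger share of falls than the rest. The neuron table holds 171 of the listed exons, of which 62 fell (36.3%) and 4 rose. Of the 2284 exons outside the list 184 fell (8.06%) and 89 rose. Within the range of 25 to 75% untreated PSI, 70.3% of listed and 44.6% of other exons fell.

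The authors' deposited probability, which was not used to choose exons, was mostly high for those that moved. This probability concerns the same difference between the same cultures, so high values for moved exons are no separate support. Its median was 0.986 for exons that fell, 0.92 for those that rose and 0.624 for those that did not move. A probability under 0.7 was given to 12 of the 246 falls and 11 of the 93 rises. Low values gathered where a PSI was close to the middle of the scale: of 74 moved exons with a PSI from 45 to 55% in either condition 14 had a probability under 0.7, against 9 of the other 265. The Adgra2, Rad51ap1, Nbea and Ap2m1 exons above belong to the first kind, and the number of reads behind them is unknown.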

How the data were processed

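Poly(A) RNA libraries were stranded with longer inserts than usual, per the labels' protocols. For the neurons the authors deposited, per the file headers, a table of microexons with PSI as a fraction for each condition, both cultures combined, and their own probability that PSI differed (another kind of value); the entropy score that the authors deposited was not used. That table is named for the control and then the treatment, so its first PSI column was read as untreated. For N2A cells the authors deposited PSI as a percent for every sample, with read numbers inside a text cell. The sources used here do not name the software. The build is mm10, per the submitters' processing notes.

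PSI was converted to percent and subtracted (cycloheximide minus untreated) with Python 3.11.15 and pandas 2.3.3. Annotation, reading-frame effects and exon sequences came from GENCODE M21 on the same build; all 2455 gene IDs matched a symbol. The majority over a gene's complete coding transcripts set the predicted effect, and the code was tested on simulated transcripts. Depth is unknown, so no precision can be given. The text names the 8 largest rises and falls in each frame class, the largest difference in each gene list and the 5 smallest differences among frame-shifting exons at 25 to 75%. Other exons are marked as chosen after their values were seen. One of the gene lists is not reported here, though its exons count among those in any list. The exons and lists were chosen with earlier results of these data known. N2A exons were matched by position and needed 10 reads in each sample. Alternatives were the last row of each exon, differences of 5 and 20 points, a PSI of 2 to 98%, lengths of 3 to 27 nt, exact annotated ends, other stop rules and, added after seeing the data, bins by mean PSI.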

Additional observations from a re-analysis of the deposited data

How the results depend on the processing

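Taking the last row of each exon, lengths of 3 to 27 nt, or the transcript with the longest coding sequence left every count and share within the limits (35, 6 and 8 results). No paired analysis was possible because the deposited PSI combines the cultures, and no culture could be left out for the same reason. With a difference of 20 points, 43 exons rose and 138 fell, 9.25% of frame-keeping and 4.90% of frame-shifting exons moved, the 5 length groups gave 5.07, 8.24, 10.4, 8.87 and 5.22%, and the untreated PSI ranges 0.610, 4.90, 38.3, 22.6 and 1.64%. The shares were 0.355% rises where skipping creates a stop, 1.91% rises and 10.6% falls where neither form has one and 4.84% falls outside coding sequence, and 1 translation factor exon, 8 adhesion, 6 scaffold, 8 endocytosis and 5 channel exons moved. With 5 points, 183 rose, 27.1% of moved frame-keeping exons rose, 28.3% and 14.7% of the frame classes moved, the length groups gave 16.7, 27.96, 29.3, 24.3 and 19.1% and the PSI ranges 4.58, 38.8, 81.8, 55.15 and 8.05%. Falls were 7.45% where skipping creates a stop, rises and falls 7.65 and 25.6% where neither form has one, and 31 adhesion, 19 scaffold, 26 cytoskeleton and 26 endocytosis exons moved. With a PSI of 2 to 98% in a condition, 29.1% of frame-keeping and 17.5% of frame-shifting exons moved, the length groups gave 15.3, 30.2, 32.2, 29.3 and 23.1%, the lowest and highest PSI ranges 4.74 and 9.57%, the skipping-stop class 3.96% rises and 7.92% falls, the neutral class 6.77% and 27.9%, and 1 splicing regulator exon moved. These shares rise because fewer exons remain. Counting any stop before the annotated one, 10.6% of inclusion-stop exons rose and 25.9% fell, and with exact annotated ends 21.2% of frame-keeping and 11.7% of frame-shifting exons moved; the cause was not tested. With ranges by mean PSI, the shares moved were 0.0, 23.4, 74.3, 26.0 and 0.0%, against 1.73, 16.1, 67.3, 36.9 and 3.13% by untreated PSI.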
